A study of Mus musculus with 298 samples.

Results

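The unfolded protein response is the programme by which a cell adjusts its endoplasmic reticulum to the load of proteins folding there. The 10 genes Hspa5, Hsp90b1, Calr, Pdia4, Sdf2l1, Herpud1, Dnajb9, Xbp1, Atf4 and Ddit3 were taken as a list of its chaperones and regulators, and all 10 were found by gene identifier among the 14605 genes of the table. All 10 also had a mean of at least 1 TPM (a share of each library's reads per length of transcript), as did 10519 genes in all, which are the genes tested below. The rule that made the list names genes of the pathway and uses no measured value, but the list was chosen with earlier results of these data known.

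The blood came from C57BL/6 mice that all carried 1 copy of a tetracycline-controlled transactivator (tTA+/-) and 1 of BCR-ABL (BCR-ABL+/-), the fusion kinase of chronic myeloid leukaemia (CML). In this SCLtTA/BCR-ABL line the transactivator is driven by control elements of Scl, a gene of blood stem and progenitor cells, and tetracycline in the drinking water (0.5 g/L) keeps the kinase off. The 20 mice, of both sexes and 6 to 8 weeks old at the start, gave libraries between week 0, drawn before induction, and week 18, weekly except in the cohort returned to tetracycline, which was sampled weekly to week 8 and then at weeks 12, 16 and 18. Control mice (3 mice, 57 libraries) stayed on tetracycline. CML mice (6 mice, 94 libraries) were taken off it from week 0 until week 18 or until they became moribund, with last libraries between weeks 7 and 18. Tet-off Tet-on mice (TOTO, 4 mice, 48 libraries) were off tetracycline for 6 weeks and on it again for 12 weeks. TKI mice (7 mice, 99 libraries) were off tetracycline throughout and were gavaged daily with nilotinib, a BCR-ABL kinase inhibitor, at 50 mg/kg for the 4 weeks between week 6 and week 10; 6 of them were followed beyond week 10, to weeks 11 to 16.

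Sensors in the membrane of the endoplasmic reticulum start the response. IRE1 splices the Xbp1 messenger into the form that encodes an active transcription factor, PERK slows translation and so favours Atf4 and its target Ddit3 (CHOP), and cleaved ATF6 moves to the nucleus to raise chaperone genes. Hspa5 (BiP), Hsp90b1 (GRP94), Calr (calreticulin), Pdia4 and Sdf2l1 are folding factors of the reticulum, while Herpud1 and Dnajb9 serve the disposal of misfolded proteins. In blood the pathway is best known from plasma cells, whose antibody secretion depends on Xbp1, and Xbp1 is also needed for the maturation of some granulocytes. The values here are sums over each gene's transcripts, so the spliced and unspliced forms of Xbp1 cannot be told apart.

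Positions are those of GRCm39. Of the folding factors, Hspa5 (ENSMUSG00000026864.14) spans chr2:34661982-34668880, Hsp90b1 (ENSMUSG00000020048.14) chr10:86526073-86541446, Calr (ENSMUSG00000003814.9) chr8:85567946-85573667, Pdia4 (ENSMUSG00000025823.10) chr6:47770077-47790462 and Sdf2l1 (ENSMUSG00000022769.10) chr16:16948002-16950252. Of the disposal genes, Herpud1 (ENSMUSG00000031770.17) spans chr8:95113022-95123141 and Dnajb9 (ENSMUSG00000014905.5) chr12:44252341-44257171. Of the regulators, Xbp1 (ENSMUSG00000020484.20) spans chr11:5470606-5483027, Atf4 (ENSMUSG00000042406.9) chr15:80139372-80141745 and Ddit3 (ENSMUSG00000025408.16) chr10:127124268-127132163.

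Matches to 4 sequence elements that the response uses were searched for, and found before the canonical start of 5 of the 10 genes. The stretches are shown because Xbp1 and Sdf2l1, whose changes are described most fully here, carry none of them in this window. The 250 bases before the canonical start of each gene (GENCODE annotation of GRCm39) were searched on both strands for the endoplasmic reticulum stress element ERSE, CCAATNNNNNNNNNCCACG, the shorter ERSE-II, ATTGGNCCACG, the element UPRE, TGACGTGG, and the C/EBP-ATF composite site, TGATGNAA, at which CHOP and ATF4 can bind. In the lines below, capitals mark the fixed letters of the match, and a match on the opposite strand is written as it reads on the gene's strand.
Hspa5, ERSE, chr2:34662032-34662060, plus strand: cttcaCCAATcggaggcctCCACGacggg
Hsp90b1, ERSE, chr10:86541497-86541525, minus strand: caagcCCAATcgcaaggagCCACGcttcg
Hsp90b1, ERSE read on the opposite strand, chr10:86541392-86541420, minus strand: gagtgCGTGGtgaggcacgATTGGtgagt
Calr, ERSE read on the opposite strand, chr8:85573699-85573727, minus strand: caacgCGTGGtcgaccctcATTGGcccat
Herpud1, ERSE-II, chr8:95113000-95113020, plus strand: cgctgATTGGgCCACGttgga
Herpud1, C/EBP-ATF read on the opposite strand, chr8:95112940-95112957, plus strand: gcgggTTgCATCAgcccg
Ddit3, C/EBP-ATF read on the opposite strand, chr10:127126356-127126373, plus strand: aaacaTTgCATCAtcccc
The Hspa5 match lies 67 to 49 bases before the start, the Calr match 55 to 37, and those of Hsp90b1 142 to 124 and 37 to 19. The matches of Hspa5 and Ddit3, and that of Hsp90b1 nearer the start, lie before the canonical start but inside the gene spans given above. ERSE was found before 3 of the 10 members and before 0.115% of 21770 protein-coding genes (0.127% of the 9422 of them that were tested). ERSE-II lay before 1 member and 0.0551% of promoters, the C/EBP-ATF site before 2 members and 3.39%, and UPRE before 0 members and 0.56%. Pdia4, Sdf2l1, Dnajb9, Xbp1 and Atf4 held none of the 4 in this window, which says only that these letters are not in it. ERSE was itself described in chaperone genes of this family, so its presence there is background and not a result.

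The bases before Xbp1 and Sdf2l1, the 2 members called in the most comparisons, are given in full up to their first annotated transcript. The Xbp1 stretch, on the plus strand of chr11:5470404-5470605, reads as follows.
Xbp1: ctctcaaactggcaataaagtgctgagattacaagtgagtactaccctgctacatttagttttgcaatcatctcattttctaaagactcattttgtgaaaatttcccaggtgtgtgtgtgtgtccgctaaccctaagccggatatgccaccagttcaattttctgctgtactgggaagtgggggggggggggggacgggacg
The Sdf2l1 stretch, on the minus strand of chr16:16950253-16950502, reads as follows.
Sdf2l1: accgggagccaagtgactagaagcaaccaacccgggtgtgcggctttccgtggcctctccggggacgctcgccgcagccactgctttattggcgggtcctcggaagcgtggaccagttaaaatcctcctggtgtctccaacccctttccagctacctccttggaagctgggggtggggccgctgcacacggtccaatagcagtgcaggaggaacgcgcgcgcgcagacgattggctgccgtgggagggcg
The 250-base window of Xbp1 was 49.2% G and C and that of Sdf2l1 64.4%, against a median of 53.2% over all promoters.

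In levels per length of transcript, Calr was the most abundant member and Dnajb9 the least. The mean of the 20 mouse means was 87.6 ± 22.3 TPM (SD, n = 20 mice) for Calr, 55.1 ± 14.7 for Hspa5, 37.1 ± 6.67 for Atf4, 31.2 ± 8.30 for Hsp90b1 and 29.2 ± 11.7 for Xbp1. It was 16.5 ± 3.33 for Pdia4, 15.9 ± 3.75 for Herpud1, 5.80 ± 2.02 for Sdf2l1, 4.71 ± 1.33 for Ddit3 and 3.57 ± 0.681 for Dnajb9. The ranges of mean ± SD overlapped in 8 of the 9 pairs of neighbours in this order; Herpud1 and Sdf2l1 did not overlap. In the control libraries the median of Xbp1 was 15.4 TPM and that of Sdf2l1 2.71 TPM, so that Xbp1 ranked under Herpud1 (17.8 TPM) and Sdf2l1 was the lowest of the 10.

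The libraries differed in make-up, and this bears on every value. Haemoglobin genes took a median of 42.6% of the TPM of a library (0.331% to 74.8%), and 2552 to 13256 genes reached 1 TPM; the labels name mononuclear cells as the tissue, while the RNA was extracted from whole blood. Because TPM is a share of the library, each change is given as deposited, on the log2(TPM + 1) scale, and again after rescaling each library by its median ratio over the 4339 genes seen in every library. At week 0, before any treatment differed, Xbp1 averaged 35.0 ± 15.8 TPM (SD, n = 4) in TOTO mice and 9.71 ± 4.73 (n = 7) in TKI mice, while its rescaled levels were 12.1 ± 1.24 and 15.8 ± 3.71. The transgene was above 0 in 8 of 57 control libraries (at most 0.716 TPM), in all 7 TKI libraries of week 6 (4.58 to 36.0 TPM) and in 0 of 4 TOTO libraries of week 8. The mouse labelled CML 487 had the transgene listed at 0 in 16 of 19 libraries. The week 17 library of control mouse 490 stood apart, with 2552 genes at 1 TPM or more, the fewest of all; it enters none of the comparisons between weeks, and correlations that include it are given also without it. Leaving it out moved the mean level of Hsp90b1 by 1.60% (to 30.7 ± 7.03 TPM) and those of the other 9 members by at most 0.349%. All tests are limma fits of per-mouse changes with Benjamini-Hochberg adjustment over the 10519 genes. Because these are bulk samples, fewer cells of a type and less RNA per cell cannot be told apart.

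**Figure D1:**
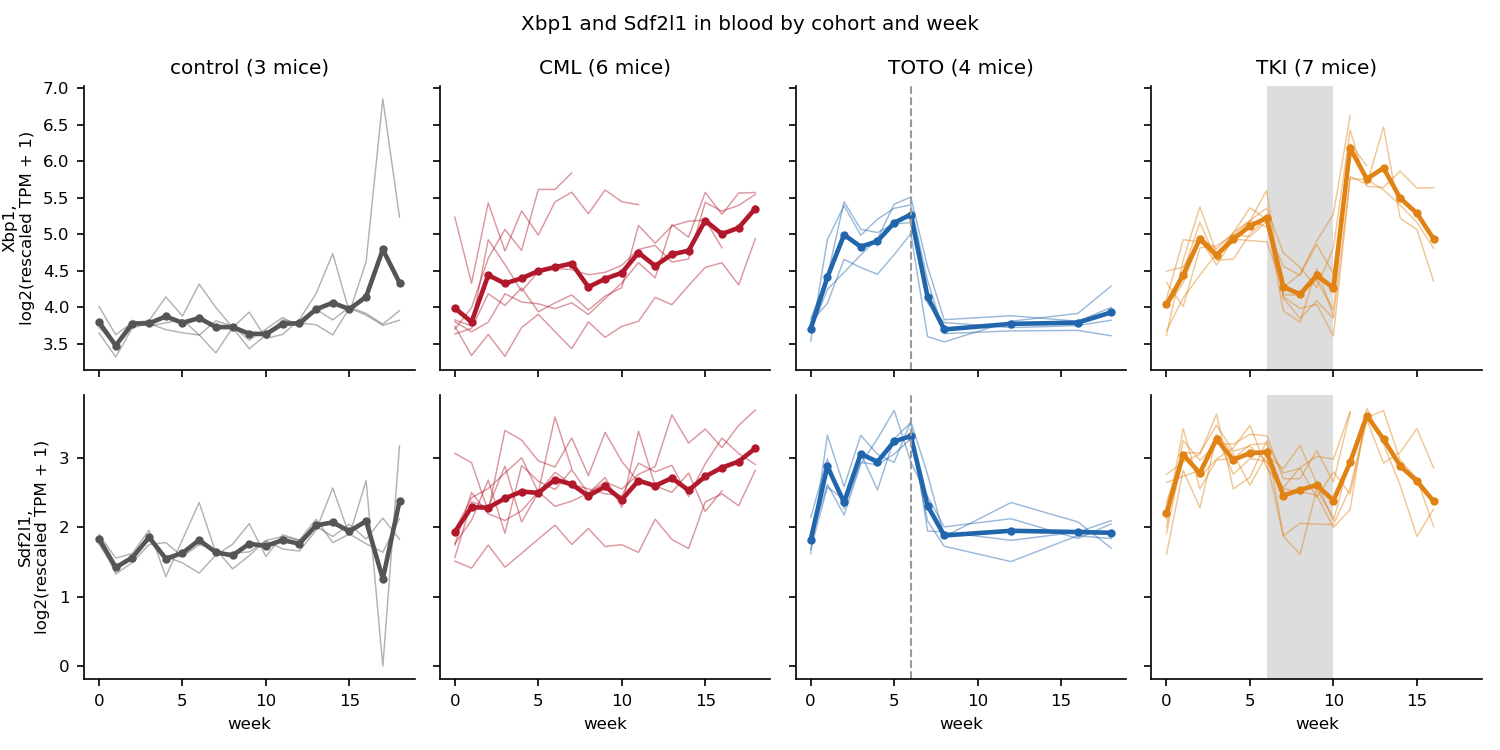
Rescaled level of Xbp1 (top) and Sdf2l1 (bottom), as log2(rescaled TPM + 1), against week for the 4 cohorts. Thin lines are mice and thick lines cohort means; the grey band marks nilotinib in weeks 6 to 10 and the dashed line the return of tetracycline at week 6. Cohort means of both genes are higher at week 6 than at week 0 in the 3 induced cohorts, lower at week 7 under either treatment, and higher again in TKI mice after week 10.

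Over the 6 weeks after tetracycline withdrawal Xbp1 and Sdf2l1, a transcription factor and a small co-factor of Hspa5, rose on the rescaled values, in 16 of 17 induced mice each, while no member passed the test on the values as deposited. As deposited, 0 of 10 members passed (1 at an unadjusted p under 0.05; 16.0% of all genes passed), with a median change of -0.23 against -0.34 over all genes. On rescaled values 6 of 10 passed, 4 higher and 2 lower, where 73.4% of all genes passed, so that the count is near the background. The rescaled median was 0.13 for the members and -0.02 for all genes.

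Xbp1 in the 17 induced mice ranged from 5.46 to 111 TPM at week 0 (median 13.1) and from 11.0 to 71.0 TPM at week 6 (median 32.2). The groups overlapped, and 11 of 17 mice were higher at week 6. On rescaled values 16 of 17 mice were higher, CML 487 being the exception (12.4 to 11.7), and the change was 1.05 ± 0.15 (log2 ± SE, adjusted p = 1.6e-06), against 0.70 ± 0.35 as deposited (adjusted p = 0.15). Rescaled Xbp1 went from a highest value of 13.3 at week 0 to a lowest of 31.2 at week 6 in the 4 TOTO mice, and from at most 21.6 to at least 28.8 in the 7 TKI mice, with no overlap in either cohort. In the 6 CML mice it overlapped, from 11.4 to 36.6 at week 0 and from 11.7 to 48.0 at week 6. The within-batch means of the rescaled change were 1.30 and 1.03 in TKI mice, 1.56 in TOTO mice and 0.44, 1.06 and 0.18 in CML mice.

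Sdf2l1 ranged from 0.99 to 22.2 TPM at week 0 (median 2.99) and from 2.82 to 10.6 TPM at week 6 (median 8.02), again with overlap. Its rescaled change was 0.98 ± 0.13 (adjusted p = 8e-07), higher in 16 of 17 mice, and its change as deposited 0.65 ± 0.30 (adjusted p = 0.11). The exception was CML mouse 484, whose rescaled level was 7.34 at week 0, the highest of the 17, and 6.28 at week 6. That mouse also held the highest rescaled Xbp1 of week 0.

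Calr, a lectin chaperone that also buffers calcium, and Pdia4, a protein disulphide isomerase, rose by less on rescaled values. The rescaled change was 0.49 ± 0.09 for Calr (adjusted p = 2.6e-05) and 0.35 ± 0.06 for Pdia4 (adjusted p = 3.1e-05). With haemoglobin genes and Rn7s2 left out in place of rescaling, neither passed (Calr 0.21, adjusted p = 0.13; Pdia4 0.083, adjusted p = 0.51). Herpud1 fell by 0.20 and Dnajb9 by 0.19 on the rescaled scale (adjusted p = 0.0046 and 0.031); Dnajb9 passed in 15 of 20 leave-one-out fits. Hspa5 (0.09), Hsp90b1 (-0.09), Atf4 (0.17) and Ddit3 (0.01) did not pass.

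The timing differed between Calr, Sdf2l1 and Xbp1. Rescaled Calr was already 1.05 ± 0.26 (mean log2 change from week 0 ± SD) higher at week 1 in TKI mice (7 of 7), 1.15 ± 0.28 in TOTO mice (4 of 4) and 0.62 ± 0.53 in CML mice (6 of 6), and -0.00 ± 0.02 in the 3 controls. It then lay lower, at 0.61 ± 0.25 in TKI and 0.76 ± 0.28 in TOTO mice at week 6. Sdf2l1 stood at 0.84 ± 0.52 in TKI and 1.06 ± 0.43 in TOTO mice at week 1 and at 0.88 ± 0.39 and 1.49 ± 0.43 at week 6. Xbp1 was 0.40 ± 0.45 and 0.70 ± 0.48 at week 1, and 1.19 ± 0.48 and 1.56 ± 0.34 at week 6. With week 1 as the start, the change of Calr to week 6 had the opposite sign, -0.18 as deposited and -0.44 rescaled. These weekly values are a description without a test.

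Against the 3 controls the induction was less certain. As deposited, 0 of 10 members passed (0 at an unadjusted p under 0.05), as did 0.0% of all genes. On rescaled values 1 of 10 passed, against 14.1% of all genes: Sdf2l1 exceeded the control change by 1.00 ± 0.33 (adjusted p = 0.049), and by -0.13 when week 1 was the start. That call held in 5 of 20 leave-one-out fits (highest adjusted p = 0.233). Xbp1 exceeded it by 1.00 ± 0.38 (adjusted p = 0.07). In the controls rescaled Xbp1 went from 12.2 to 11.3, from 11.5 to 11.3 and from 15.1 to 18.9.

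At the last library of each CML mouse, compared with week 0 and with controls, 0 of 10 members passed on either scale (0 at an unadjusted p under 0.05 on both; 0.0% of all genes passed on both). Xbp1 was nevertheless higher than at week 0 in 6 of 6 CML mice on rescaled values. Its rescaled levels went from 12.0 to 56.3, 13.2 to 45.7, 36.6 to 41.4, 12.4 to 29.7, 13.0 to 46.6 and 11.4 to 27.1. The rise from 12.4 to 29.7 was that of CML 487, which reached week 18. Its transgene was at 0 in 16 of 19 libraries and at most 0.409 TPM. The controls went from 12.2 to 14.5, 11.5 to 13.1 and 15.1 to 36.6. The last control value, of mouse 490 at week 18, lay inside the CML range; the difference was 0.82 ± 0.50 (adjusted p = 0.37). In the 3 CML mice that reached week 18, Xbp1 was 1.56 ± 0.32 and Sdf2l1 1.53 ± 0.36 above week 0 (log2, SD).

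**Figure D2:**
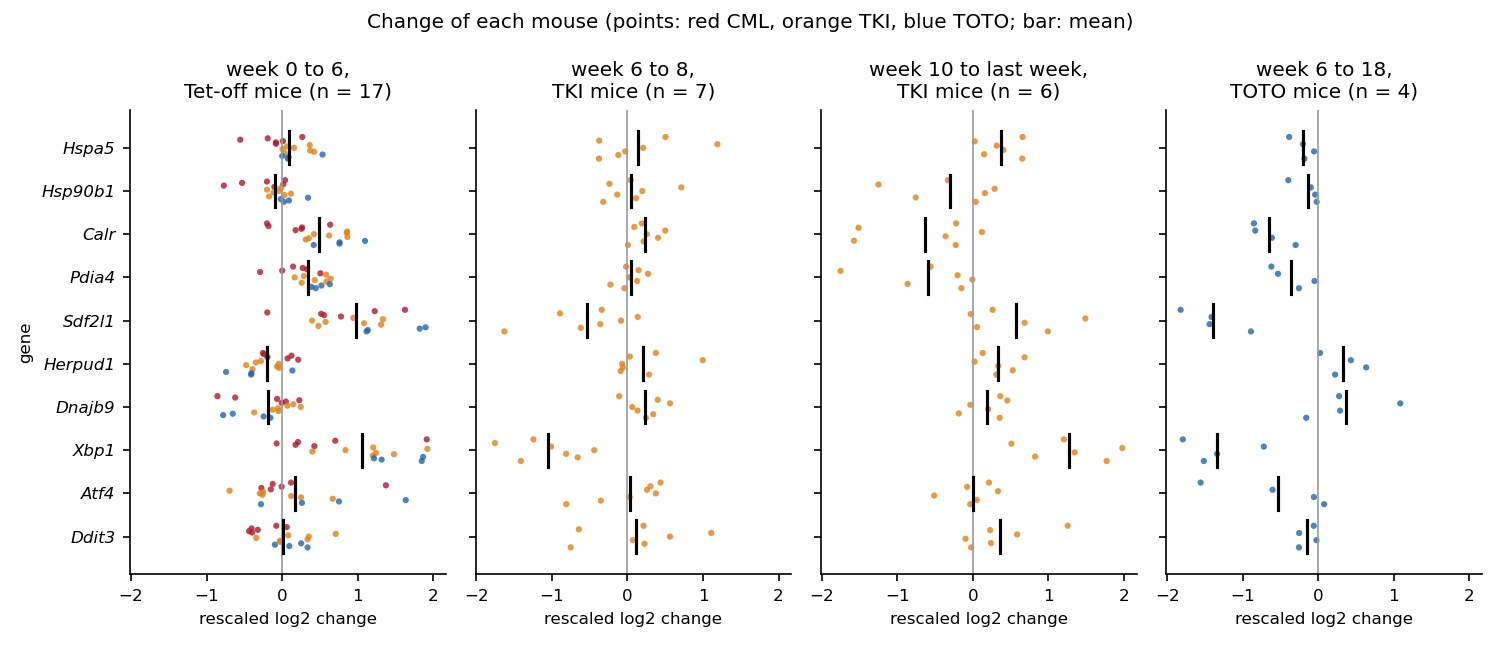
Rescaled log2 change of each member in each mouse, for week 0 to 6 (17 induced mice), week 6 to 8 under nilotinib (7 TKI mice), week 10 to the last library (6 TKI mice) and week 6 to 18 on tetracycline again (4 TOTO mice). Points are mice and black bars means. Xbp1 lies on one side of 0 in all 7, all 6 and all 4 mice of the last 3 panels.

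Between week 6 and week 8, under nilotinib, Xbp1 and Sdf2l1 fell in the blood of the TKI mice on both scales. A difference from untreated mice over these weeks was not tested. As deposited, 5 of 10 members fell between weeks 6 and 8 and 0 rose; 38.1% of all genes passed (37.7% lower), and the median change was -0.54 for the members and -0.41 for all genes. On rescaled values 3 of 10 passed (47.3% of all genes), with Xbp1 and Sdf2l1 lower and Calr higher, and medians of 0.08 and 0.06.

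Xbp1 went from 52.7 to 9.46 TPM, 60.6 to 9.95, 47.2 to 10.9, 37.3 to 13.6, 46.8 to 16.1, 32.4 to 15.6 and 28.3 to 14.3 TPM in the 7 mice. All 7 fell, and the lowest value of week 6 exceeded the highest of week 8. The change was -1.67 ± 0.26 as deposited (adjusted p = 5.7e-05) and -1.05 ± 0.13 rescaled (adjusted p = 3.3e-06). Leaving out any 1 of the 19 mice of the fit gave -1.79 to -1.53 as deposited, each past the threshold. The rescaled means within batches were -1.21 (4 mice) and -0.84 (3 mice). Sdf2l1 went from 8.99 to 3.00 TPM, 8.56 to 2.34, 9.69 to 5.18, 8.64 to 4.05, 9.60 to 4.46, 8.71 to 4.12 and 6.66 to 2.28 TPM. Again the weeks did not overlap; the change was -1.09 ± 0.19 as deposited (adjusted p = 0.0002) and -0.54 ± 0.16 rescaled (adjusted p = 0.011), with 6 of 7 mice lower on the rescaled values.

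The other 3 that fell as deposited had rescaled changes near 0. Atf4 fell by 0.60 (adjusted p = 0.0086), Hsp90b1 by 0.58 (adjusted p = 0.032) and Pdia4 by 0.57 (adjusted p = 0.029); Hsp90b1 passed in 14 and Pdia4 in 13 of 19 leave-one-out fits. Rescaled, their changes were 0.03, 0.05 and 0.04, and none passed. Calr went the other way on the rescaled scale, where it was higher in 7 of 7 mice (77.9 to 111 at week 6 and 78.3 to 137 at week 8). That rise was 0.24 ± 0.08 (adjusted p = 0.015; 0.062 without TKI mouse 508). It was 0.014 without haemoglobin genes and Rn7s2 (adjusted p = 0.90), and the change as deposited was -0.41 ± 0.21 (adjusted p = 0.11).

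The lower level of Xbp1 was in place after 1 week. At week 7 its rescaled change from week 6 was -0.94 ± 0.36 (SD), lower in 7 of 7 TKI mice, while in the 6 CML mice it was 0.05 ± 0.16. At week 10, after 4 weeks of nilotinib, 1 of 10 members passed as deposited (5.36% of all genes): Xbp1 fell by 0.95 ± 0.27 (adjusted p = 0.044), a call that 7 of 15 leave-one-out fits kept. On rescaled values 4 of 10 fell and 0 rose (37.3% of all genes passed). Xbp1 changed by -0.96 ± 0.20 (adjusted p = 0.0025), Sdf2l1 by -0.69 ± 0.14 (adjusted p = 0.0016), Atf4 by -0.37 ± 0.13 (adjusted p = 0.034) and Hspa5 by -0.20 ± 0.08 (adjusted p = 0.047). Xbp1 and Sdf2l1 passed in 15 of 15 leave-one-out fits, Atf4 in 10 and Hspa5 in 3, and with a batch term as well Atf4 and Hspa5 did not pass (adjusted p = 0.14 and 0.20).

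The TKI mice were more spread at week 10 than at week 8. Xbp1 stood at 17.5, 14.4, 21.5, 32.1, 34.9, 26.9 and 12.5 TPM, and 2 of these values lay above the lowest of week 6 (28.3 TPM). On the rescaled scale mouse 511 was the 1 mouse in which it was not lower (28.8 to 37.8). The batch means of the rescaled change were -1.28 and -0.53. Against the CML mice of the same weeks, 0 of 10 members passed as deposited (2 at an unadjusted p under 0.05; 0.038% of all genes passed) and 1 of 10 on rescaled values (21.3%). That member was Xbp1, with a difference of -1.10 ± 0.32 (adjusted p = 0.025); the call was lost without CML mouse 541 or TKI mouse 508 (highest adjusted p = 0.057). Rescaled Xbp1 in the 5 CML mice went from 22.1 to 22.8, 42.5 to 42.6, 11.7 to 12.4, 14.8 to 19.2 and 15.7 to 18.3.

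After nilotinib was stopped Xbp1 rose in all 6 mice that were followed. It went from 17.5 TPM at week 10 to 26.0 at week 16, from 14.4 to 23.1 (week 16), from 21.5 to 55.4 (week 12), from 32.1 to 157 (week 11), from 34.9 to 64.1 (week 16) and from 26.9 to 92.2 (week 11). Each mouse was higher at its end, though the 2 ends below 34.9 TPM lay inside the range of week 10. The change was 1.23 ± 0.27 as deposited (adjusted p = 0.00021) and 1.27 ± 0.21 rescaled (adjusted p = 0.0024), and each of the 6 leave-one-out fits passed on both scales. It was the 1 member of 10 to pass as deposited (29.0% of all genes), and rescaled 4 of 10 rose and 0 fell (48.5%).

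The other 3 that rose on rescaled values were Sdf2l1 by 0.58 ± 0.20 (adjusted p = 0.04), Hspa5 by 0.37 ± 0.12 (adjusted p = 0.032) and Herpud1 by 0.34 ± 0.12 (adjusted p = 0.041). Hspa5, the main soluble chaperone of the reticulum, was higher in 6 of 6 mice, at 41.9, 42.4, 39.8, 44.5, 45.8 and 41.2 at week 10 and 66.8, 43.1, 49.9, 59.3, 50.9 and 65.4 at the end. Sdf2l1 and Hspa5 passed in 2 of 6 leave-one-out fits each and Herpud1 in 1 of 6, and none of the 3 passed without haemoglobin genes and Rn7s2 (adjusted p = 0.13, 0.32 and 0.34). Calr and Pdia4 pointed down without passing on either scale: rescaled Calr changed by -0.63 ± 0.24 (adjusted p = 0.055) and Pdia4 by -0.59 ± 0.22 (adjusted p = 0.051). Each passed, lower, in 1 of 6 leave-one-out fits on either scale. As deposited that was the fit without TKI mouse 511 (adjusted p = 0.0032 for Calr and 0.0027 for Pdia4). Rescaled Pdia4 was lower in 6 of 6 mice, from 16.2 to 4.11 in mouse 507 and from 18.5 to 18.4 in mouse 511. Rescaled Calr went from 118 to 40.8 in mouse 507 and from 122 to 40.4 in mouse 512, and from 80.3 to 87.4 in mouse 508.

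The end weeks differ between these mice. At week 11, 1 week after the last dose, rescaled Xbp1 stood 2.14 ± 0.31 above week 0 in 6 of 6 mice, compared with 1.19 ± 0.48 at week 6. In the 3 mice still sampled at week 16 it was 1.00 ± 0.46. The week 11 libraries, which include the ends of mice 511 and 513, differed in make-up from those of week 10. Haemoglobin genes took 24.7%, 2.49%, 2.33%, 1.62%, 0.331% and 12.1% of TPM at week 11 in mice 502, 507, 508, 511, 512 and 513. At week 10 they took 28.4%, 33.0%, 25.6%, 31.1%, 12.8% and 22.5%. The part of this difference in the rise of Xbp1 was not tested.

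In the TOTO mice, back on tetracycline, Xbp1, Sdf2l1 and Calr fell between weeks 6 and 18 on rescaled values. As deposited, 1 of 10 members passed between weeks 6 and 18 (23.4% of all genes), which was Sdf2l1; rescaled, 4 of 10 fell and 1 rose (56.6% of all genes). The medians were 0.23 for the members and 0.44 for all genes as deposited, and -0.28 and 0.04 rescaled.

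Xbp1 went from 16.7 to 17.5 TPM, 19.9 to 14.8, 32.2 to 15.3 and 71.0 to 19.3 TPM, so that 3 of 4 mice were lower and the weeks overlapped. On rescaled values it went from 41.3 to 11.2, 31.2 to 18.6, 34.7 to 13.1 and 44.6 to 15.0, without overlap. The change was -0.79 ± 0.34 as deposited (adjusted p = 0.077) and -1.34 ± 0.17 rescaled (adjusted p = 0.00013). Sdf2l1 went from 4.23 to 3.50 TPM, 6.58 to 2.61, 8.02 to 2.99 and 10.6 to 4.05 TPM. All 4 mice were lower and the weeks did not overlap; the change was -0.92 ± 0.28 as deposited (adjusted p = 0.016; lost without TOTO mouse 482 or 483) and -1.39 ± 0.19 rescaled (adjusted p = 0.00021).

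Rescaled Calr went from 100 to 55.0, 91.0 to 50.6, 85.4 to 55.5 and 68.5 to 55.5, a change of -0.65 ± 0.12 (adjusted p = 0.00083); as deposited it was -0.08 ± 0.28, and without haemoglobin genes and Rn7s2 -0.19 (adjusted p = 0.24). Pdia4 fell by 0.36 (adjusted p = 0.017) and Herpud1 rose by 0.33 (adjusted p = 0.037) on the rescaled scale, Pdia4 in 8 and Herpud1 in 7 of 10 leave-one-out fits. Without haemoglobin genes and Rn7s2 Pdia4 was at 0.080 (adjusted p = 0.62) and Herpud1 at 0.81 (adjusted p = 0.0004). Rescaled Xbp1 was 1.13 ± 0.20 (SD) below week 6 at week 7, 1.57 ± 0.18 below at week 8 and lower in 4 of 4 mice at every later week sampled. From week 0 it differed by -0.01 ± 0.19 at week 8 and 0.22 ± 0.24 at week 18, Sdf2l1 by 0.10 ± 0.30 and Calr by 0.11 ± 0.13 at week 18.

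Compared with the change of the 3 controls over the same weeks, 1 of 10 members passed as deposited (7.23% of all genes) and 4 of 10, all lower, on rescaled values (47.9%). Sdf2l1 differed by -1.54 ± 0.43 (adjusted p = 0.018; lost without TOTO mouse 482 or 483 or control mouse 490) and by -1.95 ± 0.30 rescaled (adjusted p = 0.00061). Xbp1 differed by -1.38 ± 0.52 (adjusted p = 0.098) and by -1.82 ± 0.26 rescaled (adjusted p = 0.00048), Calr by -0.71 ± 0.18 (adjusted p = 0.0074) and Pdia4 by -0.47 ± 0.17 (adjusted p = 0.043), both rescaled. Pdia4 passed in 4 of 10 leave-one-out fits (highest adjusted p = 0.123), and without haemoglobin genes and Rn7s2 Calr (-0.20, adjusted p = 0.42) and Pdia4 (0.011, adjusted p = 0.97) did not pass. The controls had moved up: Xbp1 went from 7.53 to 11.2, 7.21 to 7.98 and 27.4 to 59.9 TPM. All 4 TOTO mice came from 1 labelled batch with 1 of the controls, and with a batch term 0 of 10 members passed for TOTO mice alone on either scale, while 2 of 10 passed against controls on rescaled values.

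**Figure D3:**
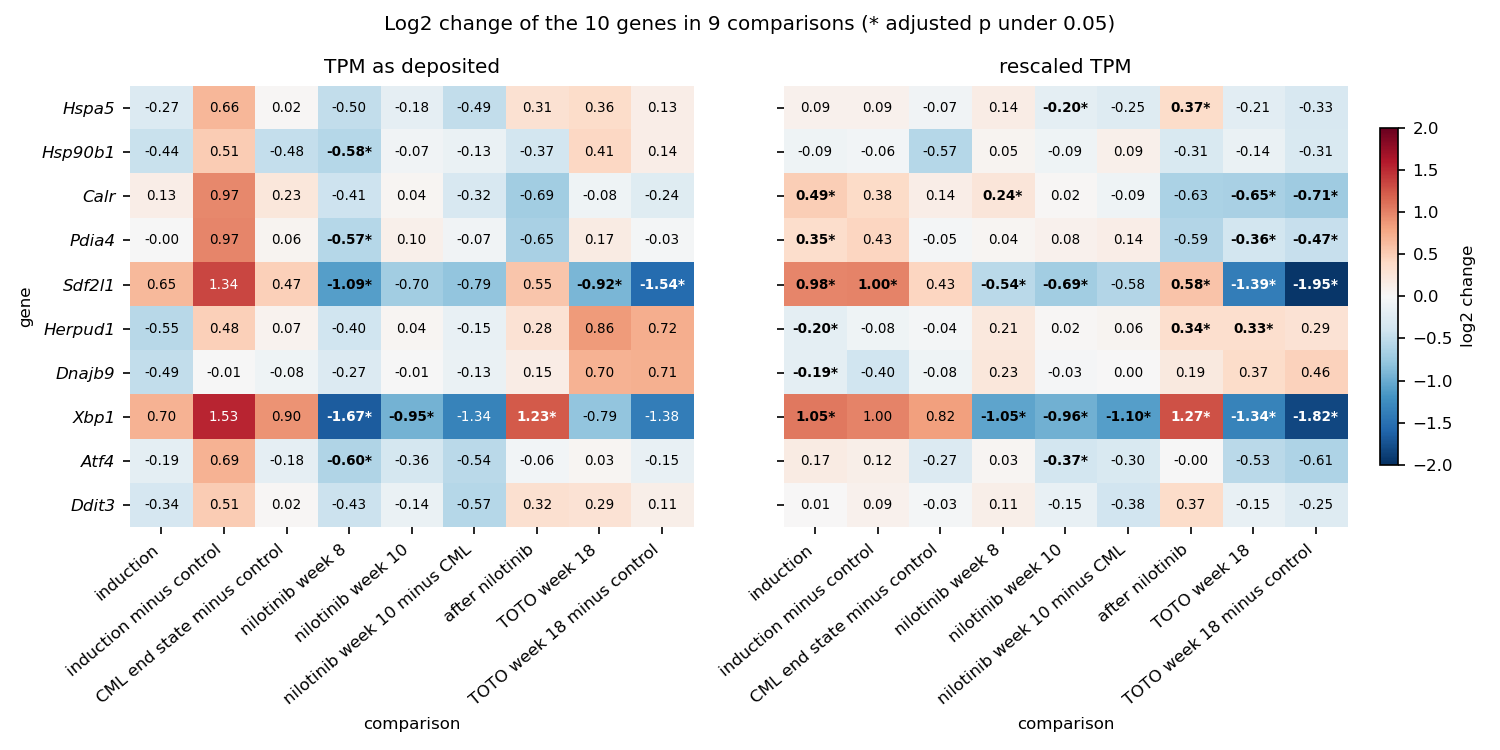
Log2 change or difference of the 10 members (rows) in the 9 comparisons (columns), as deposited and rescaled; colour gives the size and direction and a star an adjusted p under 0.05. Xbp1 and Sdf2l1 carry the most stars, with opposite signs for induction and for both treatments, while Ddit3 carries no star.

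Granulocyte markers moved with Xbp1 and Sdf2l1 in each of these comparisons. The secondary granule list held 7 genes, Ngp, Camp, Ltf, Lcn2, Mmp8, Chil3 and the transcription factor Cebpe. All 7 were higher at week 6 after induction and after nilotinib (medians as deposited 3.23 and 2.89). All 7 were lower at week 8 of nilotinib and at week 18 in TOTO mice (-2.67 and -4.12). Of all genes as deposited, 3.86% rose on induction and 13.3% after nilotinib. At week 8 37.7% fell, and in TOTO mice 5.20%. The summed rescaled level of the 7 in TKI mice was 780 to 1914 at week 6 and 181 to 701 at week 8. In TOTO mice it was 816 to 1875 at week 6 and 22.6 to 54.1 at week 18, none of the 7 genes being at 0 throughout. The 6 mature neutrophil genes fell at week 8 (6 of 6) and rose after nilotinib (6 of 6). Of the 5 primary granule genes only Prtn3 reached a mean of 1 TPM, and it passed in the same directions in these 4 comparisons. In control mouse 490, in which Xbp1 reached 59.9 TPM at week 18, the secondary granule sum of that week was 210 rescaled, against 27.8 and 37.9 in the other controls. Other lists gave calls too. Of all genes, rescaled, 34.6% rose and 38.8% fell on induction, and 27.7% and 19.6% at week 8 of nilotinib. The shares were 24.1% and 24.4% after nilotinib and 30.1% and 26.6% in TOTO mice. On rescaled values 5 of 6 monocyte genes rose and 1 fell on induction. At week 8 of nilotinib, and in TOTO mice at week 18, 1 rose and 3 fell. After nilotinib 1 rose and 2 fell, near the shares of all genes. Of the 5 basophil genes, 5 rose on induction, 1 fell at week 8 of nilotinib (near the share of all genes) and 2 rose after it. Their summed rescaled level in TOTO mice was 19.6 to 29.5 at week 6 and 1.61 to 3.98 at week 18. The part of cell make-up in the changes of Xbp1 and Sdf2l1 was not tested.

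Plasma cell and B cell markers did not move that way. Of 7 listed, 6 were measured and 2 were tested, Mzb1 and Irf4; Jchain (0.906 TPM on average), Sdc1 (0.632), Prdm1 (0.769) and Fkbp11 (0.677) lay under 1 TPM. Their summed rescaled level was 9.3 to 19.2 in TKI mice at week 6 and 12.2 to 28.2 at week 8. Both tested genes fell on induction and rose in TOTO mice by week 18, against the direction of Xbp1. The B cell list went with them: as deposited 10 of 10 fell on induction (median -1.42), 9 of 10 fell after nilotinib (-2.42) and 10 of 10 rose in TOTO mice (1.92), while at week 8 of nilotinib 0 of 10 passed as deposited (0 at an unadjusted p under 0.05) and 10 of 10 rose rescaled (0.51). Of all genes as deposited, 12.2% fell on induction, 15.7% fell after nilotinib and 18.2% rose in TOTO mice. At week 8 of nilotinib 27.7% rose rescaled. The summed rescaled B cell level was 188 to 249 in TOTO mice at week 6 and 411 to 699 at week 18, with none of the 10 at 0 throughout. The part of these cells in the members' changes was not tested.

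Platelet markers pointed the same way as Calr. The list held 5 genes, Pf4, Ppbp, Itga2b, Gp1bb and Gp9. On rescaled values 5 passed as higher on induction (34.6% of all genes) and 5 at week 8 of nilotinib (27.7%). As lower, 4 passed after nilotinib (24.4%) and 5 in TOTO mice (26.6%). Their summed rescaled level in TKI mice was 1879 to 4026 at week 0, 3854 to 9117 at week 6 and 6549 to 15228 at week 8, and none was at 0 throughout. The 6 monocyte genes summed to 311 to 435 rescaled in TKI mice at week 6 and 215 to 478 at week 8, and to 324 to 381 and 106 to 202 in TOTO mice at weeks 6 and 18. At week 8 of nilotinib 1 of these 6 rose and 3 fell on rescaled values (median -0.41), against 27.7% and 19.6% of all genes. Calr rose there. The part of either cell type in the changes of Calr was not tested.

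**Figure D4:**
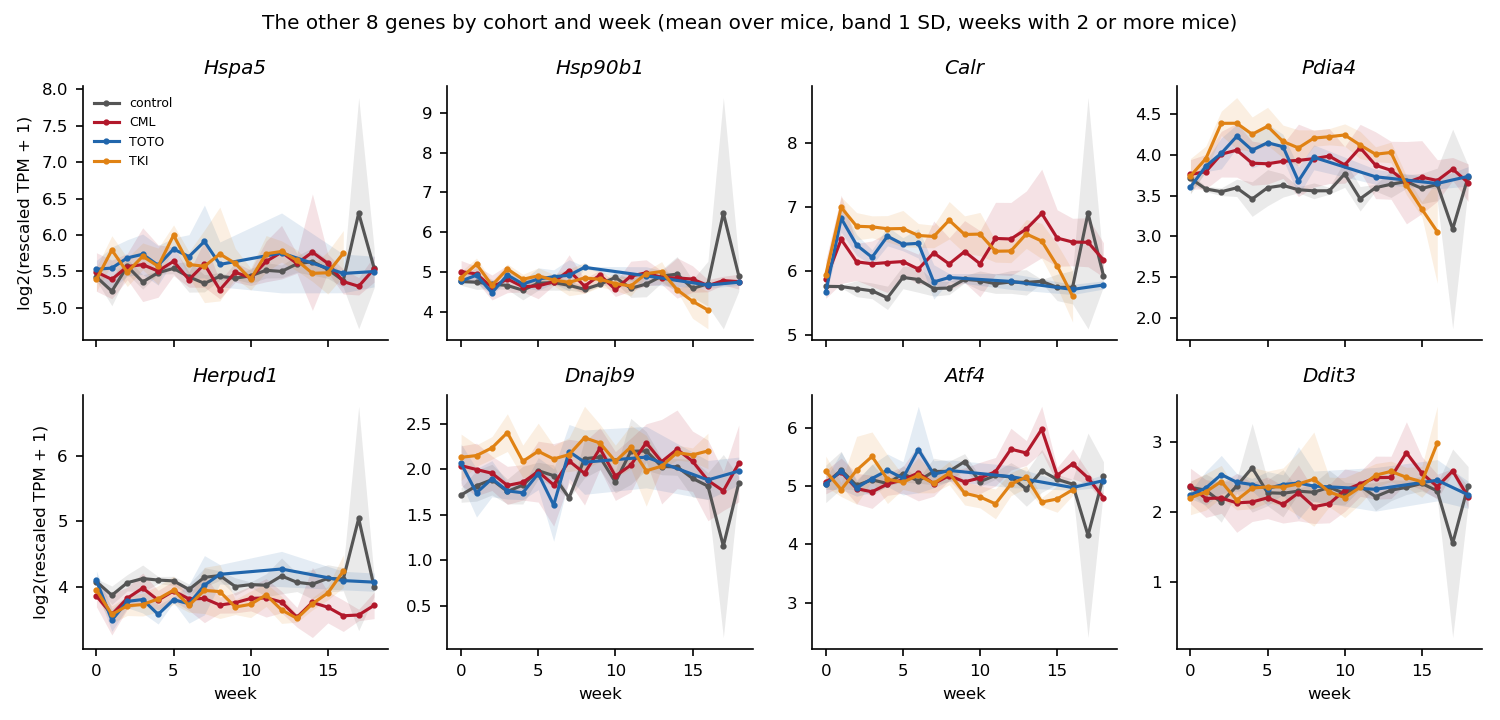
Rescaled level of the other 8 members, as log2(rescaled TPM + 1), against week; lines are cohort means and bands 1 SD over mice, for weeks with at least 2 mice. Calr is higher at week 1 than at week 0 in the 3 induced cohorts and stays so in TKI mice through nilotinib; the wide control band at week 17 holds the library of mouse 490 that stood apart.

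The remaining members gave few calls. Ddit3, the pro-apoptotic factor CHOP, passed in 0 of 9 comparisons on either scale. Its rescaled changes and differences ran from -0.38 to 0.37. Dnajb9, a co-chaperone induced through Xbp1, passed once, on induction, and lower. Atf4 and Hspa5 passed on rescaled values only at week 10 and, for Hspa5, after nilotinib. Hsp90b1 passed on rescaled values in 0 of 9 comparisons.

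**Figure D5:**
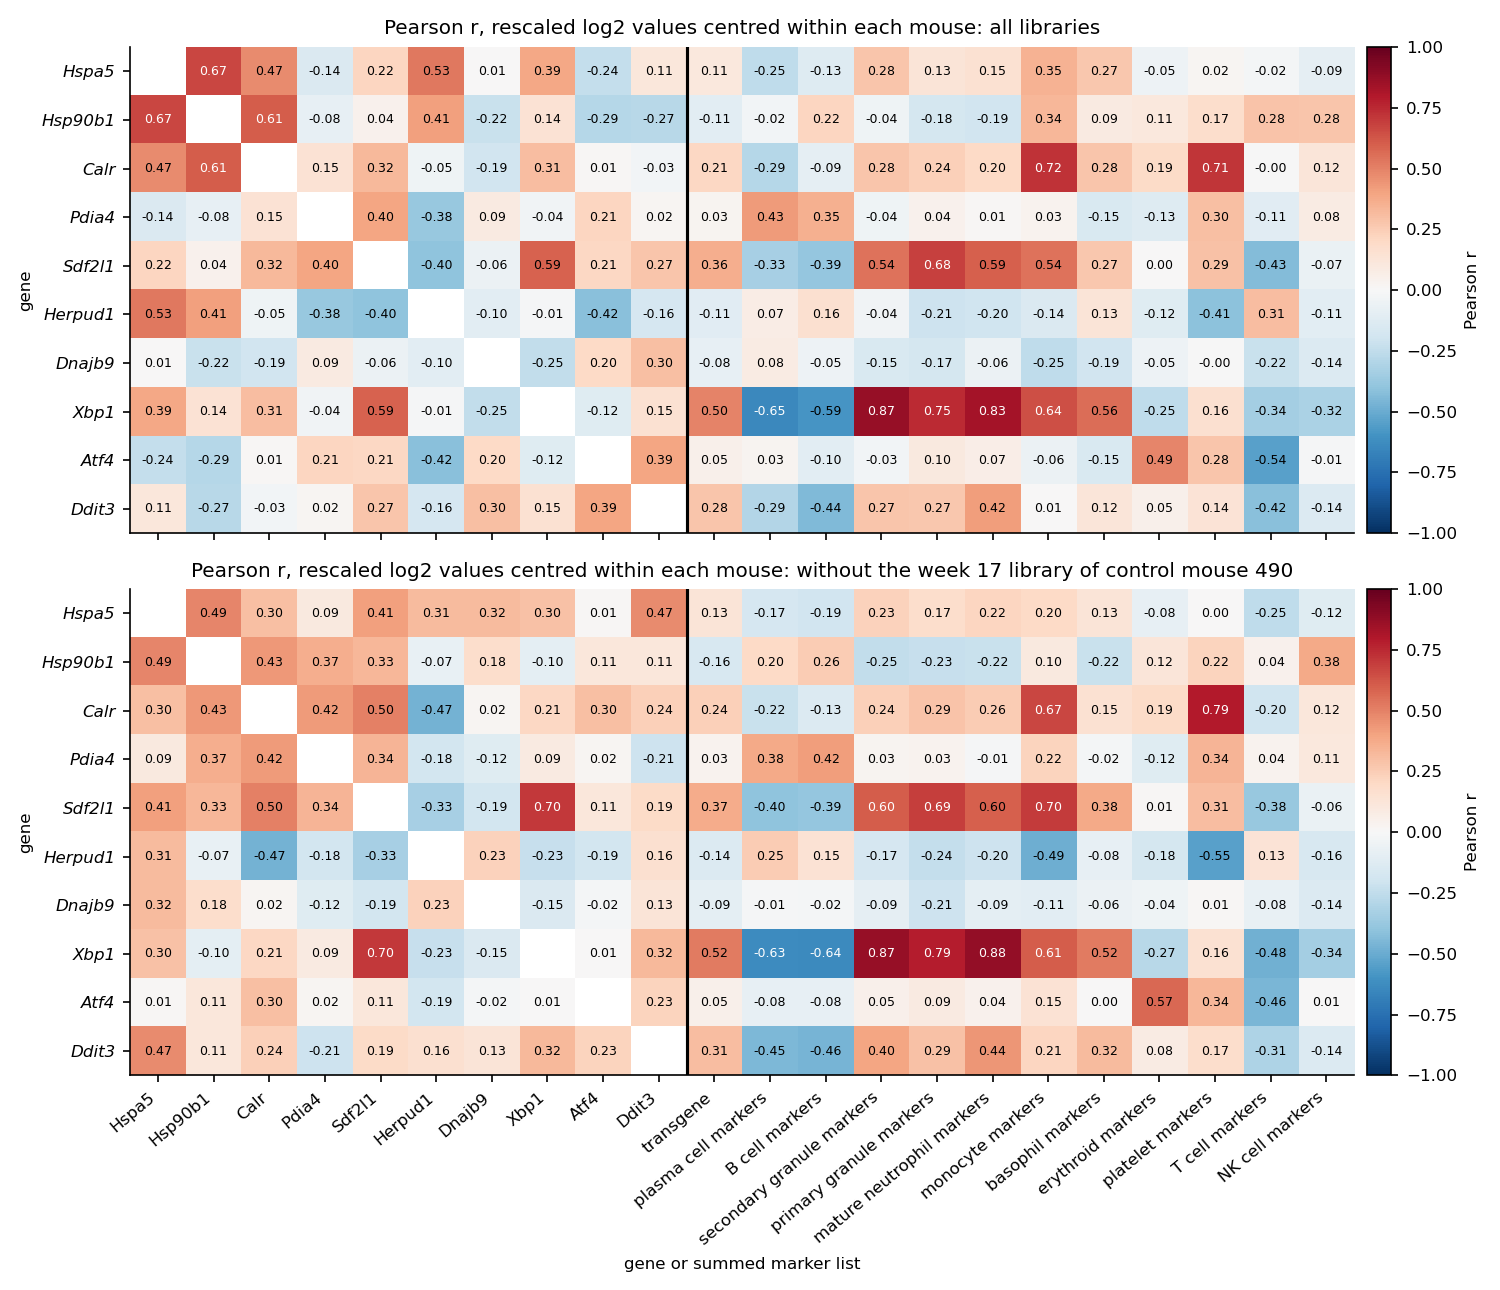
Pearson r between log2 rescaled levels, each centred within its mouse, for the 10 members against each other and against the transgene and 11 summed marker lists, over all libraries (top) and without the week 17 library of control mouse 490 (bottom). Xbp1 is high against the granulocyte lists in both, while the highest pair of members changes from Hspa5 with Hsp90b1 to Xbp1 with Sdf2l1.

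The members did not vary as a block. With levels rescaled and centred within each mouse, the 45 pairs of members had a median Pearson r of 0.040 over all libraries (-0.417 to 0.669), and of 0.158 without the library that stood apart (-0.469 to 0.705). The points share mice and week, so these values are a description. Over all libraries the highest pair was Hspa5 and Hsp90b1, a pair of chaperones induced through ATF6 (0.669, and 0.489 without that library). Xbp1 and Sdf2l1 stood at 0.59, and at 0.705, the highest of the 45, without it. The lowest pair was Atf4 and Herpud1 over all libraries (-0.417, then -0.187) and Calr and Herpud1 without it (-0.469).

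Some relations to the marker sums moved with that library too: Herpud1 and the monocyte sum stood at -0.14 with and -0.49 without it, and Hspa5 and the T cell sum at -0.02 and -0.25. Those of Xbp1 moved little. Xbp1 went with the secondary granule sum (0.87 with and 0.87 without it) and the mature neutrophil sum (0.83 and 0.88), stood at 0.50 and 0.52 against the transgene, and at -0.65 and -0.63 against the plasma cell sum. Sdf2l1 stood at 0.54 and 0.70 against the monocyte sum and at 0.68 and 0.69 against the primary granule sum. Against the secondary granule sum it stood at 0.54 and 0.60, and against the mature neutrophil sum at 0.59 and 0.60. Calr went with the platelet (0.71 and 0.79) and monocyte sums (0.72 and 0.67). Pdia4 stood at 0.43 and 0.38 against the plasma cell sum and at 0.35 and 0.42 against the B cell sum. Atf4 stood at 0.49 and 0.57 against the erythroid sum and at -0.54 and -0.46 against the T cell sum.

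The tested genes most like each member depend on that library too. Over all libraries the 5 most like Xbp1 were Tlr13 (r = 0.931), Anxa2 (0.928), C3 (0.927), Itgam (0.926) and Cd300lf (0.924); without it they began with 1600014C10Rik (0.942), Pla2g7 (0.942) and Bst1 (0.941), with 0 of 5 shared. For Sdf2l1 3 of 5 were shared, Trem2 being first over all libraries (0.823) and second without it (0.829). For Hsp90b1 the first pair was Pdia6 (0.833, then 0.620) and Stip1 (0.798, then 0.571) both ways.

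Without that library the gene most like Hspa5 was Creld2 (0.672), followed by Txnrd1 (0.560) and Manf (0.527); Creld2 and Manf are secreted factors known as targets of the response. The first over all libraries was Hsp90b1 (0.669). Atf4 had Uros (0.769), Pabpc4 (0.765), Pck2 (0.763), Cpox (0.757) and Atf5 (0.742) without it, and Tax1bp1 (0.794) first with it. Calr had As3mt (0.879) and Canx (0.879), the membrane-bound relative of calreticulin, without it, and Pfkm (0.875) first with it. For Herpud1 0 of 5 were shared, for Dnajb9 2 of 5 and for Ddit3 1 of 5.

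The wider pathway was read from 6 lists without the 10 members. On induction as deposited, 5 of 20 ATF4 and CHOP targets rose and 0 fell, where 3.86% of all genes rose. Against the controls 0 of 20 passed on either scale (3 as deposited and 5 rescaled at an unadjusted p under 0.05), where 0.0% of all genes rose as deposited and 6.56% rescaled. Among the 5 were Mthfd2, of mitochondrial folate metabolism (1.46 ± 0.29, adjusted p = 0.0019), and the amino acid transporter Slc7a5 (1.22). Of the other lists, 0 of 16 chaperones, 0 of 15 degradation genes, 1 of 16 translocation genes, 0 of 12 sensors and regulators and 0 of 11 cytosolic heat shock genes rose (3, 1, 1, 4 and 3 of them were at an unadjusted p under 0.05 in either direction). On rescaled values 12 of 16 chaperones rose and 3 fell (34.6% and 38.8% of all genes), P4hb by 1.24 ± 0.13 (adjusted p = 7.8e-08), Canx by 0.80 and Pdia3 by 0.78. Other lists rose too: 11 of 16 translocation genes (1 fell), 10 of 15 degradation genes (3 fell) and 14 of 20 ATF4 and CHOP targets (2 fell). Of the sensors 4 of 12 rose and 4 fell, and of the heat shock genes 2 of 11 rose and 4 fell. Against the controls, rescaled, 4 of 16 chaperones, 3 of 16 translocation genes and 1 of 15 degradation genes rose and 0 fell.

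At week 8 of nilotinib as deposited, 12 of 16 chaperones, 10 of 15 degradation genes, 9 of 16 translocation genes, 5 of 12 sensors, 12 of 20 ATF4 and CHOP targets and 7 of 11 heat shock genes fell and 0 rose, where 37.7% of all genes fell. Sesn2 (-1.52 ± 0.23, adjusted p = 4.6e-05) and Cebpb (-1.68 ± 0.26, adjusted p = 6.4e-05), the latter a granulocyte factor as well as a CHOP partner, had the smallest p of the ATF4 targets. On rescaled values the chaperones split into 3 higher and 3 lower and the ATF4 targets into 0 higher and 6 lower, where 27.7% of all genes were higher and 19.6% lower. At week 10 as deposited, 5 of 20 ATF4 targets fell and 0 rose, where 3.18% of all genes fell, and 0 of 16 chaperones passed (1 at an unadjusted p under 0.05).

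After nilotinib as deposited, 5 of 20 ATF4 targets rose and 0 fell (13.3% of all genes rose), Cebpb by 2.05 ± 0.28 (adjusted p = 1.3e-09), Ddit4 by 1.42 and Asns by 1.19. Of the 16 chaperones 1 rose and 2 fell, where 13.3% of all genes rose and 15.7% fell; the oxidase Ero1a changed by 0.91 and Canx by -0.92. In TOTO mice at week 18, 6 of 20 ATF4 targets fell and 1 rose as deposited (5.20% of all genes fell and 18.2% rose); Atf5 fell by 1.78 ± 0.34 (adjusted p = 0.0002). Rescaled, 8 of 16 chaperones fell and 3 rose, where 26.6% and 30.1% of all genes did. Atf4 itself passed in neither induction nor after nilotinib, the comparisons in which 5 of the listed ATF4 and CHOP targets rose as deposited. The part of ATF4 activity or of cell make-up in the changes of these targets was not tested.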

How the data were processed

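Blood RNA of 20 mice in 4 cohorts was sequenced weekly (TOTO mice weekly to week 8, then at weeks 12, 16 and 18) from ribosome-depleted, reverse-stranded libraries of whole blood; samples of RIN above 4 were kept, per the labels' protocols. The deposited values are TPM per gene, a share of each library per length of transcript, made by the authors, whose processing notes name STAR, Salmon and GRCm39 without versions; quantification details are not given in the sources used here. TPM keeps no read depth, so no counting interval was possible. The table holds genes that reach 1 TPM in 5 libraries (14604 of 14605).

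Cohort and week came from the labels. Gene identifiers were matched to GENCODE M39 (14537 of 14605). Each mouse gave 1 change of log2(TPM + 1) per comparison, tested with limma 3.58.1 (R 4.3.3; lmFit with a term per cohort, eBayes with trend) over the 10519 genes with a mean of at least 1 TPM, Benjamini-Hochberg threshold 0.05. The rescaled values divide each library by its median-ratio size factor (0.134 to 3.84). Alternatives left out haemoglobin genes and Rn7s2, changed pseudocount, filter, start, end or batch term, or left out each mouse. Scripts were tested on simulated data.

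The mouse is the pair: libraries of weeks 0 and 6 from the same mouse correlated at a mean of 0.200 in their deviations from cohort means (-0.498 to 0.550, 15 of 20 above 0.1). Different mice correlated at a mean of -0.0103 (-0.590 to 0.544, 121 of 380 above 0.1), so that the ranges overlapped. Replicates are separate mice.

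The members and all lists were chosen with earlier results of these data known. The genes named are the 10 members in every comparison, up to 4 genes per other list and comparison with the smallest p among those that passed, and the 5 tested genes with the highest Pearson r to each member; correlations without the library that stood apart, and the genes named from them, were added after seeing the data. Promoter sequences were read from GRCm39.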

Additional observations from a re-analysis of the deposited data

Results flagged for a closer look

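In 140 groups of 4 to 10 mice, 4 rescaled log2 changes lay farther from the rest of their group than Dixon's 95% limit allows, and chance alone flags about 1 group in 20. Atf4 changed by 1.37 between weeks 0 and 6 in CML mouse 484, against -0.27 to 0.12 in the other CML mice. Pdia4 of the same mouse stood 0.84 above week 0 at its last library, against -0.34 to -0.05 in the others. Herpud1 changed by 1.00 between weeks 6 and 8 in TKI mouse 508, against -0.09 to 0.38 in the other TKI mice. Hspa5 changed by 0.54 between weeks 0 and 6 in TOTO mouse 476, against 0.002 to 0.09 in the other TOTO mice.

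The change of Sdf2l1 between weeks 6 and 18 differed between TOTO and control mice by -1.54 on the log2 scale in the limma fit of the difference (adjusted p = 0.018), with 4 of 4 TOTO mice lower. It was the 1 member to pass a difference between cohorts on the values as deposited.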

How the results depend on the processing

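Scaling decides most calls, of the members and of all genes. The share of all genes that passed went from 16.0% as deposited to 73.4% rescaled for induction. At nilotinib week 10 it went from 5.36% to 37.3%. Shares under the other alternatives are not given, so the counts below describe the settings and are no result about the members. The count of members that passed went from 0 as deposited to 6 rescaled and 5 without haemoglobin genes and Rn7s2 for induction, from 0 to 1 rescaled for induction against controls, from 5 to 3 and 3 at nilotinib week 8, from 1 to 4 and 3 at week 10, from 0 to 1 and 1 for week 10 against CML, from 1 to 4 and 3 after nilotinib, from 1 to 5 and 5 for TOTO week 18 and from 1 to 4 and 4 for TOTO against controls. Alternatives that combine rescaling with another choice, or drop TKI mice from the CML end state fit, were chosen after seeing the data. For induction, week 1 as the start gave 2 (6 rescaled) and a batch term with rescaling 6. For nilotinib week 10, a pseudocount of 0.1 gave 0, no filter 0, week 9 as the end 0 (2 rescaled) and a batch term with rescaling 2; against CML, a batch term gave 1 and week 9 rescaled 1. For TOTO week 18, no filter gave 0, a batch term 0 (0 rescaled), week 12 as the end 3 (6 rescaled) and week 16 as the end 2 (5 rescaled); against controls, no filter gave 0, a batch term 0 (2 rescaled), week 12 as the end 0 (3 rescaled) and week 16 as the end 0 (3 rescaled).

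With no replicate block, that is without pairing libraries by mouse, 3 members passed at nilotinib week 8, 0 at week 10, 0 for TOTO week 18 and 0 for TOTO against controls. Leaving out 1 mouse at a time gave 0 to 1 members for induction (1 without CML mouse 484). At nilotinib week 8 the count was 3 to 8 (8 without TKI mouse 514, and 3 without 502, 507, 508, 511 or 512). At week 10 it was 0 to 2, and after nilotinib 1 to 4. The 4, without TKI mouse 511, were Xbp1, higher, and Calr, Pdia4 and Hsp90b1, lower. For TOTO week 18 the count was 0 to 3 (0 without TOTO mouse 482 or 483). Against controls it was 0 to 2 (0 without TOTO mouse 482 or 483 or control mouse 490).

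Some member changes switched sign; the cause was not tested. On induction Pdia4 (-0.00 as deposited) was 0.35 rescaled, 0.083 without haemoglobin genes and Rn7s2, 0.015 with a pseudocount of 0.1, 0.27 with a batch term and rescaling, 0.42 from week 1 (0.19 rescaled) and -0.15 to 0.13 with 1 mouse left out. From week 1, Calr was -0.18 (-0.44 rescaled), Herpud1 0.43 (0.20 rescaled), Dnajb9 0.079 and Sdf2l1 against controls -0.21 (-0.13 rescaled); Calr ranged from -0.035 to 0.32 with 1 mouse left out. At nilotinib week 8 the rescaled values were 0.053 for Hsp90b1, 0.24 for Calr (0.014 without haemoglobin genes and Rn7s2), 0.041 for Pdia4 and 0.035 for Atf4. Hspa5 at week 9 was 0.094 (0.014 rescaled). For TOTO, Calr was 0.23 at week 12, 0.013 at week 16 and -0.46 to 0.093 with 1 mouse left out. Pdia4 was -0.36 rescaled, -0.27 with a batch term (-0.37 rescaled), -0.37 at week 12 and -0.45 at week 16 rescaled, and -0.17 to 0.41 with 1 mouse left out; against controls it was 0.011 without haemoglobin genes and Rn7s2, 0.14 at week 12 and -0.37 to 0.20 with 1 mouse left out. Over the members and comparisons with a call as deposited or rescaled (none for Ddit3 or the CML end state), 548 values under the alternatives kept sign and side of the threshold, 63 passed only under the alternative, 44 only as reported and 45 switched sign. The 548 include values that passed neither as deposited nor under the alternative, such as 24 for Xbp1 on induction. Rescaled fits with 1 mouse left out are not among these values. Xbp1 and Sdf2l1 at nilotinib week 8 and Xbp1 after nilotinib passed as deposited, rescaled and with any mouse left out.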
